A study of Mus musculus with 12 samples.

Results

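The genes described here are 10 mouse genes of lipid droplet storage and lipolysis, namely the perilipins Plin2, Plin3, Plin4 and Plin5, the lipase Pnpla2, its protein inhibitors Hilpda and G0s2, the secreted lipase inhibitor Angptl4, and the acyltransferases Dgat1 and Dgat2. They were picked by symbol, and each matched 1 of the 28991 Ensembl identifiers in the count table. All 10 passed the filter on low counts. A lipid droplet is a core of triglyceride and sterol ester under a phospholipid layer that carries perilipins. Triglyceride enters the core when the DGAT enzymes add the last fatty acid to diacylglycerol, and it leaves when adipose triglyceride lipase, encoded by Pnpla2, removes a fatty acid. The proximal tubule of the kidney burns fatty acids for most of its energy, and droplets are known to collect in tubule cells when supply and oxidation do not match.

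Whole kidneys came from male BALB/c mice, an inbred laboratory strain, aged 8 weeks, with 3 mice in each of 4 groups. Combination mice received dichloroacetate at 250 mg per kg into the peritoneum every day for 5 days, and then 20 mg per kg of cisplatin together with dichloroacetate. Cisplatin mice received saline for 5 days and then the same cisplatin injection, and kidneys of both injected groups were taken 24 h later. Dichloroacetate mice received 250 mg per kg daily for 6 days, and saline mice received saline daily for 6 days. All mice were dosed repeatedly, and the hour of harvest of the groups without cisplatin is not given in the labels. Cisplatin is a platinum drug that injures kidney tubules, and dichloroacetate inhibits the kinases that switch off pyruvate dehydrogenase. The study asked whether dichloroacetate protects the kidney from cisplatin.

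Library totals ran from 29505929 to 35925471 counts in mice given cisplatin, with or without dichloroacetate, and from 38236592 to 62237514 in the other mice, and a member had between 38 and 16177 counts in a library. Levels are given as CPM, counts scaled to a common library total,, or, where genes are compared with each other, as CPM per kilobase of exon (RPKM). Changes are log2 fold changes with their standard error (SE) from an edgeR quasi-likelihood test over all 20370 genes that passed the filter, called at an adjusted p below 0.05. Kidney identity was read from marker lists: the 10 proximal tubule markers summed to 12905 to 14484 CPM in saline mice. In these whole-kidney samples, fewer cells of a type and less RNA per cell cannot be told apart.

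Cisplatin raised 5 members (Plin2, Plin3, Hilpda, Angptl4 and Dgat1) and lowered 4 (Plin5, Pnpla2, G0s2 and Dgat2) against saline, so that 9 of 10 were called where 60.1% of all genes were. Plin4 was not called. Adding dichloroacetate to cisplatin changed 6 members against cisplatin alone, with Plin2, Plin3 and Hilpda lower and Plin5, G0s2 and Dgat2 higher, where 31.6% of all genes were called. Each of those 6 moved opposite to its change under cisplatin. Both comparisons use the same cisplatin mice, which by itself favours opposite signs. The share of all genes that moved in this way was not counted. Combination mice differed from saline mice in 4 of 10 members, near the 40.2% of all genes. Plin2, Plin3 and Plin4 were higher, as were 20.6% of all genes, and Pnpla2 was lower, as were 19.6%. Of these, Plin4 had not been called for cisplatin over saline. Against dichloroacetate mice, combination mice had 5 members higher, where 21.5% of all genes were, and 1 lower, where 19.2% were (40.7% in either direction). The median log2 fold change of the 10 members was 0.35 for cisplatin over saline, against -0.01 for all genes, and -0.01 for the combination over cisplatin, against 0.01 for all genes.

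**Figure D1:**
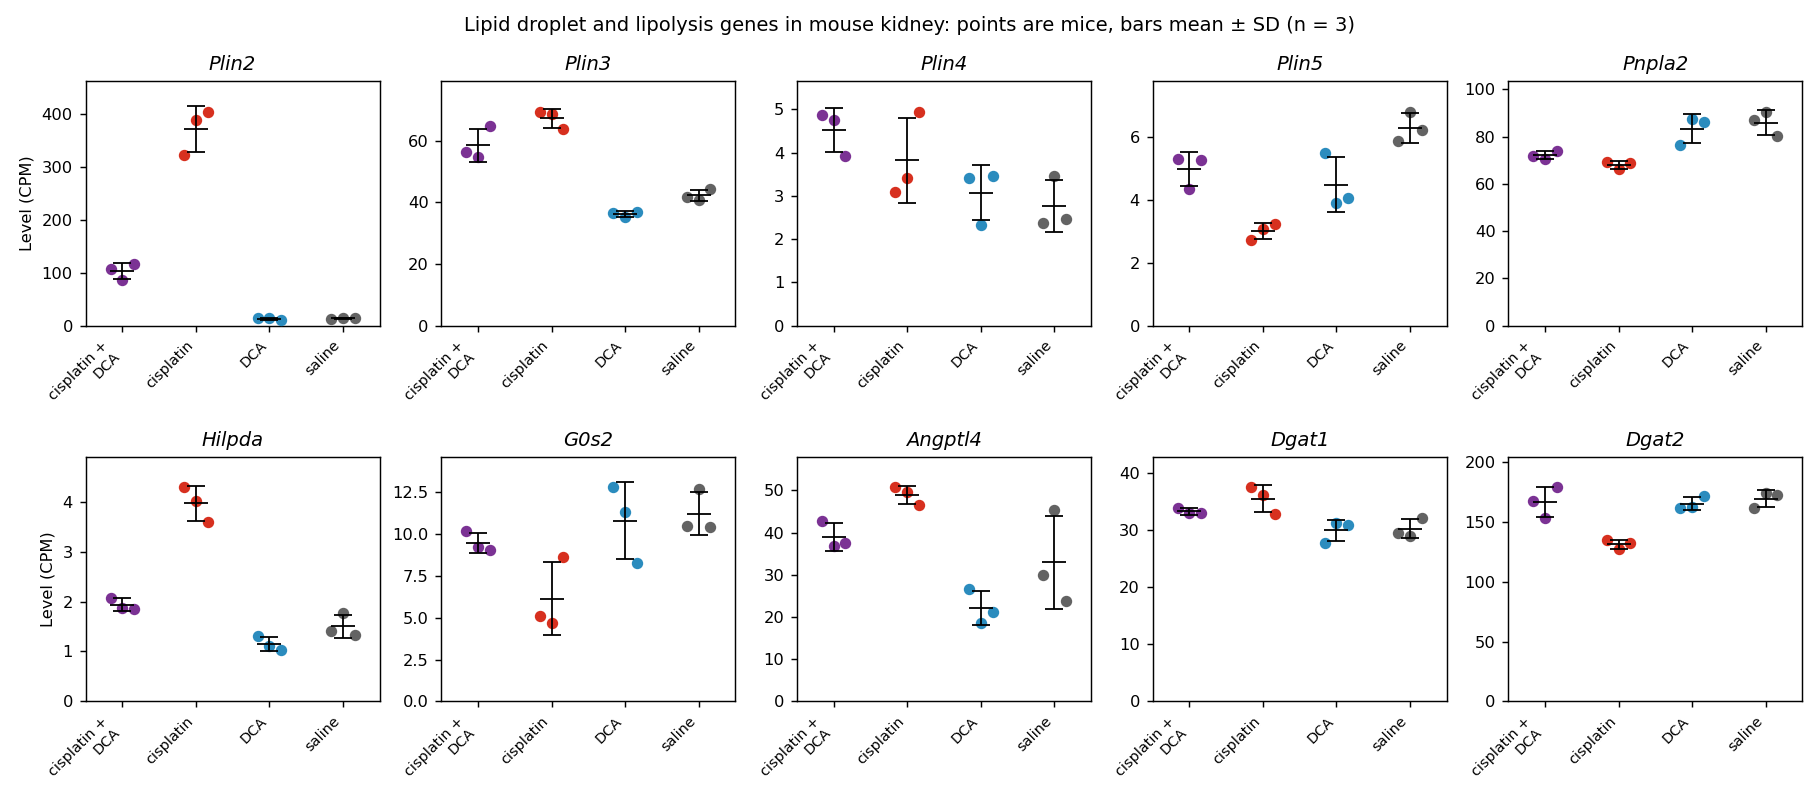
Level of each of the 10 genes in CPM (vertical axis, from 0) in every mouse, by group (DCA, dichloroacetate), with bars for mean ± SD. Plin2 lies at 323 to 404 CPM in cisplatin mice, 86.2 to 117 CPM in combination mice and 11.1 to 14.8 CPM in the others, while Plin5, Pnpla2, G0s2 and Dgat2 have their lowest means in cisplatin mice.

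Plin2 encodes the perilipin that coats droplets in most tissues outside fat, and its protein is stable only on droplets. The Plin2 gene (ENSMUSG00000028494) lies on chromosome 4, 86648386 to 86670060, minus strand, in build mm10. Its level was 106, 86.2 and 117 CPM in combination mice, 323, 388 and 404 CPM in cisplatin mice, 14.8, 14.1 and 11.1 CPM in dichloroacetate mice, and 13.2, 14.4 and 14.3 CPM in saline mice. The cisplatin and the combination mice each stood clear of every other group, and the 2 groups without cisplatin overlapped. Cisplatin over saline gave a log2 value of 4.73 (SE 0.14, adjusted p = 3.1e-11), a 26.6-fold difference. The combination over cisplatin gave -1.85 (SE 0.12, adjusted p = 1.2e-06), and the combination over saline still gave 2.88 (SE 0.13, adjusted p = 3.2e-09), a 7.37-fold difference. The response to cisplatin was 2.94 (SE 0.13) with dichloroacetate and 4.73 without it. The difference between those responses, called the interaction here, was -1.79 log2 units (SE 0.18, adjusted p = 7e-05), where 18.6% of all genes had a called interaction, 11.4% positive and 7.15% negative. Cd68, a macrophage lysosomal marker named after its values were seen, had the same directions. Cd68 gave 4.00 (SE 0.24) for cisplatin over saline and -2.77 (SE 0.22) for the combination over cisplatin. Of the 10 macrophage markers, Itgam was also called higher with cisplatin, at 0.75. Csf1r, Mrc1 and Adgre1 were called lower, at -0.87, -1.15 and -0.57, and 5 were not called. The part of Cd68 in the Plin2 values was not tested.

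Plin5 encodes the perilipin that tethers droplets to mitochondria in tissues that oxidise fat, and it moved opposite to Plin2. The gene (ENSMUSG00000011305) lies on chromosome 17, 56111601 to 56117596, minus strand. Its level was 5.30, 4.35 and 5.27 CPM in combination mice, 2.73, 3.06 and 3.22 CPM in cisplatin mice, 5.49, 3.91 and 4.07 CPM in dichloroacetate mice, and 5.87, 6.81 and 6.21 CPM in saline mice. All cisplatin mice lay below all others, and the combination and dichloroacetate mice overlapped. Cisplatin over saline gave -1.07 (SE 0.14, adjusted p = 2e-05), and the combination over cisplatin gave 0.72 (SE 0.15, adjusted p = 0.002). The response to cisplatin in dichloroacetate-treated mice was 0.13 (95% interval -0.16 to 0.43), and the interaction was 1.20 (SE 0.20, adjusted p = 0.0012). The combination over saline gave -0.35 (SE 0.14, adjusted p = 0.058), which was not called, although the 3 mice of each group did not overlap.

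The promoters of Plin2 and Plin5 are printed because these perilipins moved in opposite directions, and of the 7 members with a window in the RefSeq table (build GRCm38.p6) they alone held any of the searched motifs. The search covered the 250 bases before the RefSeq start nearest to each gene's GENCODE start. The GENCODE gene reaches 1 base into the Plin2 window and 48 bases into the Plin5 window, and those bases are not printed. The runs are chr4:86670061-86670309 for Plin2 and chr17:56117597-56117798 for Plin5, both on the minus strand. Capitals mark matches on either strand.
Plin2: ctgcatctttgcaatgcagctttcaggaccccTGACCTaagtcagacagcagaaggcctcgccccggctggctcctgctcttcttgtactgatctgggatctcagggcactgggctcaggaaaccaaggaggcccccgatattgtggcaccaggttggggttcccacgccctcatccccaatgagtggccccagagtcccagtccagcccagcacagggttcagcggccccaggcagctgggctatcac
Plin5: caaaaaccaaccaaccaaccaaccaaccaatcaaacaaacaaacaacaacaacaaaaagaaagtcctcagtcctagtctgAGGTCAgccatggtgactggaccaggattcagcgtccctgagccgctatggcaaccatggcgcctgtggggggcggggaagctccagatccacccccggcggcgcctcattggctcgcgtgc
The motifs were AGGTCA, the hexamer that nuclear receptors of the PPAR class bind as a repeat, that repeat itself (AGGTCA, any base N, AGGTCA again), ACGTG, the core bound by hypoxia-inducible factors, and TGANTCA, bound by AP-1; AGGTCA is contained in the repeat. Plin2 held 1 AGGTCA match, on the opposite strand, whose outermost base is 218 bases before the start. Plin5 held 1 AGGTCA match at 170 bases and 1 TGANTCA match at 11 bases, counted from the RefSeq start; the second lies in the stretch inside the GENCODE gene. Of 32851 windows of this length, 14% held AGGTCA, 0.0335% the repeat, 16.6% ACGTG and 6.75% TGANTCA. The windows of Plin3, Plin4, Pnpla2, Hilpda and G0s2 held none of these letters. A match describes the letters only.

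Plin3 and Plin4 sit near Plin5 on the minus strand of chromosome 17, at 56277476 to 56292873 (ENSMUSG00000024197) and 56100591 to 56109803 (ENSMUSG00000002831). Plin3, which moves from cytosol to new droplets, was 56.3, 54.6 and 64.7 CPM in combination mice, 69.4, 68.7 and 63.8 CPM in cisplatin mice, 36.7, 35.2 and 36.9 CPM in dichloroacetate mice, and 41.7, 40.6 and 44.4 CPM in saline mice. Both cisplatin-injected groups lay above both others. Cisplatin over saline gave 0.67 (SE 0.07, adjusted p = 1.1e-06) and the combination over dichloroacetate 0.69 (SE 0.07, adjusted p = 2.6e-06). The interaction was 0.02 (95% interval -0.18 to 0.22), in contrast to Plin2. The combination over cisplatin gave -0.20 (SE 0.06, adjusted p = 0.029) with overlapping mice; the call was lost in 4 of the 6 fits that left out 1 library (adjusted p = 0.076 without cisplatin replicate 1, 0.089 without cisplatin replicate 2, 0.11 without combination replicate 1 and 0.13 without combination replicate 2), and the value was -0.31 without combination replicate 3.

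Plin4, a perilipin abundant in fat cells and muscle, was the lowest member per length in all 4 groups. It had 4.88, 4.75 and 3.93 CPM in combination mice, 3.10, 3.42 and 4.95 CPM in cisplatin mice, 3.42, 2.34 and 3.45 CPM in dichloroacetate mice, and 2.37, 3.45 and 2.47 CPM in saline mice. Cisplatin mice overlapped every other group, and cisplatin over saline gave 0.46 (95% interval 0.01 to 0.91, adjusted p = 0.071). The combination over saline gave 0.70 (SE 0.21, adjusted p = 0.016) and over dichloroacetate 0.55 (SE 0.20, adjusted p = 0.046). The call against saline was lost without combination replicate 1 (adjusted p = 0.056) or saline replicate 1 (0.064). The call against dichloroacetate was lost in 6 of 11 alternatives, among them DESeq2-type scaling of the libraries (adjusted p = 0.051). A stretch of 17 bases of Plin4 is shared with Hdgfl2 on the other strand, and these libraries are not stated to keep strand.

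Per length, the perilipin pool changed its leading member. The 4 perilipins summed to 48.0 ± 5.88 RPKM in combination mice, 126 ± 11.9 RPKM in cisplatin mice, 16.1 ± 0.936 RPKM in dichloroacetate mice and 18.6 ± 0.592 RPKM in saline mice (SD, n = 3 each). Plin2 made up 61.0% ± 2.11 of that sum in combination mice, 84.1% ± 1.88 in cisplatin mice, 23.6% ± 2.84 in dichloroacetate mice and 21.4% ± 0.550 in saline mice. Plin3 was the larger part without cisplatin, at 59.7% ± 3.27 in dichloroacetate mice and 59.9% ± 2.17 in saline mice. Plin5 fell to 1.15% ± 0.0215 of the sum in cisplatin mice, against 16.2% ± 1.09 in saline mice, and was 4.97% ± 0.259 in combination mice. No test was run on the shares.

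**Figure D2:**
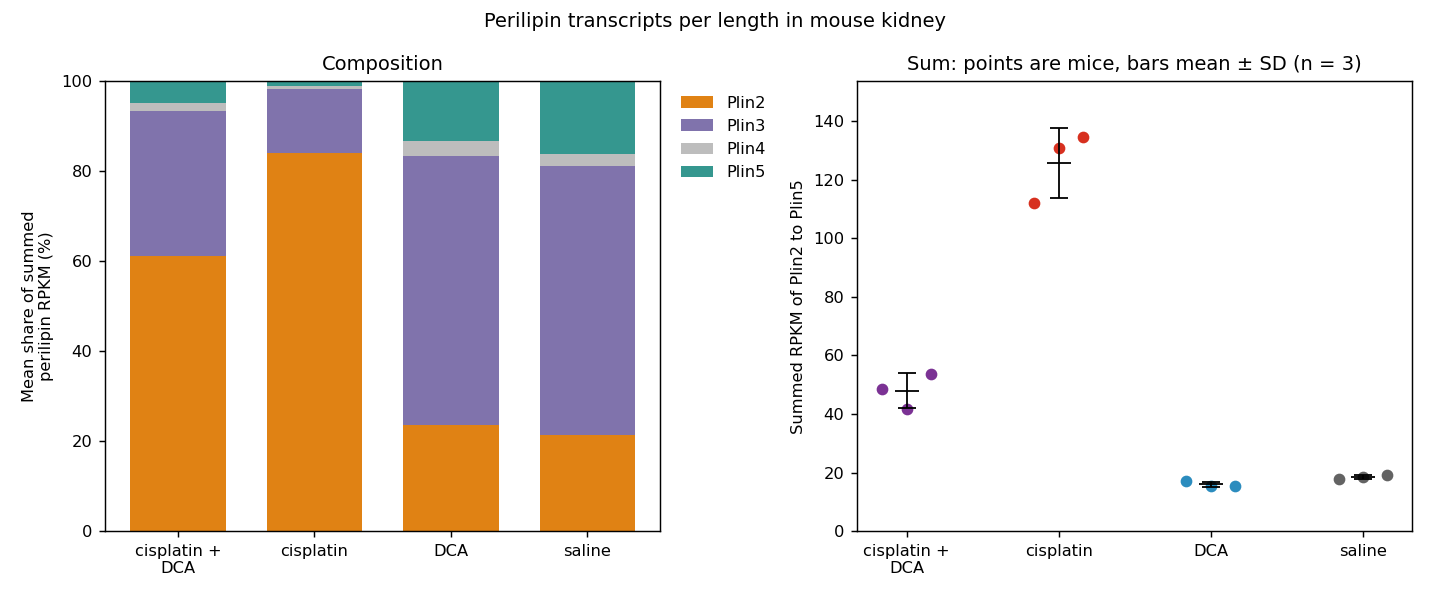
Left, mean share of each perilipin in the summed RPKM of Plin2, Plin3, Plin4 and Plin5, by group (DCA, dichloroacetate); right, that sum in RPKM for every mouse with mean ± SD. Plin2 takes 84.1% of the sum in cisplatin mice and 21.4% in saline mice, with combination mice in between on both panels.

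Ordered by RPKM, Dgat2 led the members in saline mice at 54.9 ± 2.20, followed by Pnpla2 at 28.5 ± 1.70 and G0s2 at 12.9 ± 1.47, and Plin2 was seventh at 3.98 ± 0.188 (SD, n = 3 each). In cisplatin mice Plin2 led at 106 ± 12.3 RPKM, ahead of Dgat2 at 42.5 ± 1.22 RPKM. In combination mice Dgat2 led again at 54.0 ± 4.14 RPKM, with Plin2 next at 29.4 ± 4.45 RPKM and Pnpla2 at 23.9 ± 0.567 RPKM. Middle ranks in saline mice were less sure, since Angptl4 varied by 33.4% of its mean there.

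The genes of lipolysis changed less than Plin2, and the lipase itself changed little. Pnpla2 (ENSMUSG00000025509; chromosome 7, 141455198 to 141460743, plus strand) had 71.8, 70.5 and 73.9 CPM in combination mice, 69.1, 66.2 and 68.7 CPM in cisplatin mice, 76.3, 87.5 and 86.2 CPM in dichloroacetate mice, and 86.9, 90.6 and 80.4 CPM in saline mice. On this scaled CPM, every cisplatin-injected mouse lay below every other mouse. Cisplatin over saline gave -0.34 (SE 0.06, adjusted p = 0.00037) and the combination over saline -0.25 (SE 0.06, adjusted p = 0.0056). The combination over cisplatin gave 0.08 (95% interval -0.05 to 0.22), and the interaction was 0.13 (95% interval -0.06 to 0.32). The combination over dichloroacetate gave -0.21 (SE 0.06, adjusted p = 0.017), which was lost in 4 of 6 fits without 1 library, those without combination replicate 1 (adjusted p = 0.052) or 2 (0.059) and without dichloroacetate replicate 2 (0.072) or 3 (0.06).

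The inhibitors of this lipase split. Hilpda, induced by hypoxia and fatty acids in other cells, lies on chromosome 6, 29272488 to 29275446, plus strand (ENSMUSG00000043421). It had 2.08, 1.87 and 1.86 CPM in combination mice, 4.29, 4.01 and 3.60 CPM in cisplatin mice, 1.31, 1.12 and 1.02 CPM in dichloroacetate mice, and 1.42, 1.76 and 1.32 CPM in saline mice. Cisplatin mice lay above all others, and combination mice came next without overlap. Cisplatin over saline gave 1.39 (SE 0.14, adjusted p = 1.9e-06), the combination over cisplatin -1.03 (SE 0.14, adjusted p = 0.00013) and the combination over dichloroacetate 0.73 (SE 0.16, adjusted p = 0.0022). The combination over saline gave 0.35 (95% interval 0.02 to 0.68, adjusted p = 0.082). The interaction, -0.65 (SE 0.21, adjusted p = 0.048), was called by a small margin and lost in 11 of 16 alternatives, with adjusted p from 0.028 to 0.14; DESeq2 gave -0.68 (adjusted p = 0.073), and 9 of the 12 fits without 1 library lost it, those keeping it being without cisplatin replicate 3, saline replicate 2 or dichloroacetate replicate 3.

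G0s2, an inhibitor of the lipase that is abundant in fat, fell where Hilpda rose. It lies on chromosome 1, 193272161 to 193273217, minus strand (ENSMUSG00000009633), inside an intron of Lamb3 on the other strand, with no shared exon. Its level was 10.2, 9.21 and 9.05 CPM in combination mice, 5.11, 4.67 and 8.65 CPM in cisplatin mice, 12.8, 11.3 and 8.28 CPM in dichloroacetate mice, and 10.5, 12.7 and 10.4 CPM in saline mice. Cisplatin replicate 3 stood well above the other two of its group. Against saline, cisplatin gave -0.86 (SE 0.20, adjusted p = 0.0024). The combination over cisplatin gave 0.62 (SE 0.21, adjusted p = 0.037), but the call was lost in 5 of 6 fits without 1 library (adjusted p from 0.071 to 0.16; all but the fit without cisplatin replicate 3, where the value was 0.95) and with the replicate number as a block (adjusted p = 0.055). The interaction was 0.67 (SE 0.28, adjusted p = 0.13), or 1.00 (adjusted p = 0.0069) without cisplatin replicate 3. Lamb3 had 1.10 to 1.47 CPM in combination mice, 1.22 to 1.96 CPM in cisplatin mice, 2.14 to 2.24 CPM in dichloroacetate mice and 1.61 to 2.97 CPM in saline mice, and its part in the G0s2 counts was not tested.

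The 2 inhibitors together made up 53.0% ± 3.88 of the Pnpla2 level per length in combination mice, 47.2% ± 9.34 in cisplatin mice, 49.2% ± 13.2 in dichloroacetate mice and 49.9% ± 3.78 in saline mice (SD, n = 3 each). These ranges overlapped in all 4 groups. Abhd5, the co-activator of the same lipase, averaged 73.0 ± 4.62 CPM in combination mice, 94.7 ± 4.06 CPM in cisplatin mice, 50.8 ± 1.47 CPM in dichloroacetate mice and 45.3 ± 5.51 CPM in saline mice. It rose by 1.06 (SE 0.08, adjusted p = 8.3e-08) with cisplatin and was lower in the combination than in cisplatin by a log2 value of -0.37 (SE 0.08, adjusted p = 0.0025). The next enzymes of the path were chosen for mention after their values were seen. Hormone-sensitive lipase, Lipe, had a log2 fold change of 0.02 (SE 0.10) with cisplatin, and monoglyceride lipase, Mgll, fell with -0.98 (SE 0.13, adjusted p = 2.1e-05).

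Angptl4 encodes a secreted inhibitor of lipoprotein lipase and is a target of PPAR and glucocorticoid receptors in other tissues. It lies on chromosome 17, 33773750 to 33781830, minus strand (ENSMUSG00000002289). It had 42.7, 36.7 and 37.5 CPM in combination mice, 50.7, 49.5 and 46.6 CPM in cisplatin mice, 26.7, 18.6 and 21.2 CPM in dichloroacetate mice, and 29.9, 45.3 and 23.9 CPM in saline mice. Saline replicate 2 stood apart from its group, just below the lowest cisplatin mouse and above every combination mouse. Cisplatin against saline gave 0.56 (SE 0.18, adjusted p = 0.016), or 0.86 without saline replicate 2, and the call was lost without saline replicate 1 (0.49, adjusted p = 0.06) or saline replicate 3 (0.38, adjusted p = 0.061). The combination over dichloroacetate gave 0.81 (SE 0.18, adjusted p = 0.0033) and kept its call in all 11 alternatives. The combination over cisplatin gave -0.33 (95% interval -0.72 to 0.06, adjusted p = 0.19), although the groups did not overlap; with only these groups in the fit it was called at -0.35 (SE 0.07, adjusted p = 0.0028). The combination over saline gave 0.23 (adjusted p = 0.33), or 0.53 (adjusted p = 0.0093) without saline replicate 2.

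The DGAT enzymes, which are unrelated in sequence and both complete triglyceride, moved in opposite directions by small amounts. Dgat1 (ENSMUSG00000022555; chromosome 15, 76502015 to 76511953, minus strand) had 33.9, 32.9 and 33.0 CPM in combination mice, 37.5, 36.2 and 32.8 CPM in cisplatin mice, 27.7, 31.2 and 30.8 CPM in dichloroacetate mice, and 29.6, 29.0 and 32.1 CPM in saline mice. Relative to saline, cisplatin gave 0.23 (SE 0.06, adjusted p = 0.0057), and the other 4 pairwise comparisons and the interaction were not called. Dgat2 (ENSMUSG00000030747; chromosome 7, 99153658 to 99182719, minus strand) had 168, 153 and 179 CPM in combination mice, 134, 127 and 132 CPM in cisplatin mice, 162, 162 and 172 CPM in dichloroacetate mice, and 162, 174 and 172 CPM in saline mice. The cisplatin mice lay below all others and the combination mice overlapped both groups without cisplatin. With cisplatin over saline the value was -0.37 (SE 0.06, adjusted p = 0.00013), the combination over cisplatin 0.35 (SE 0.06, adjusted p = 0.00074) and the interaction 0.38 (SE 0.09, adjusted p = 0.0077). The combination over saline gave -0.02 (95% interval -0.15 to 0.11). The ratio of Dgat2 to Dgat1 RPKM was 4.97 ± 0.384 in combination mice, 3.67 ± 0.273 in cisplatin mice, 5.48 ± 0.322 in dichloroacetate mice and 5.56 ± 0.339 in saline mice (SD, n = 3 each).

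**Figure D3:**
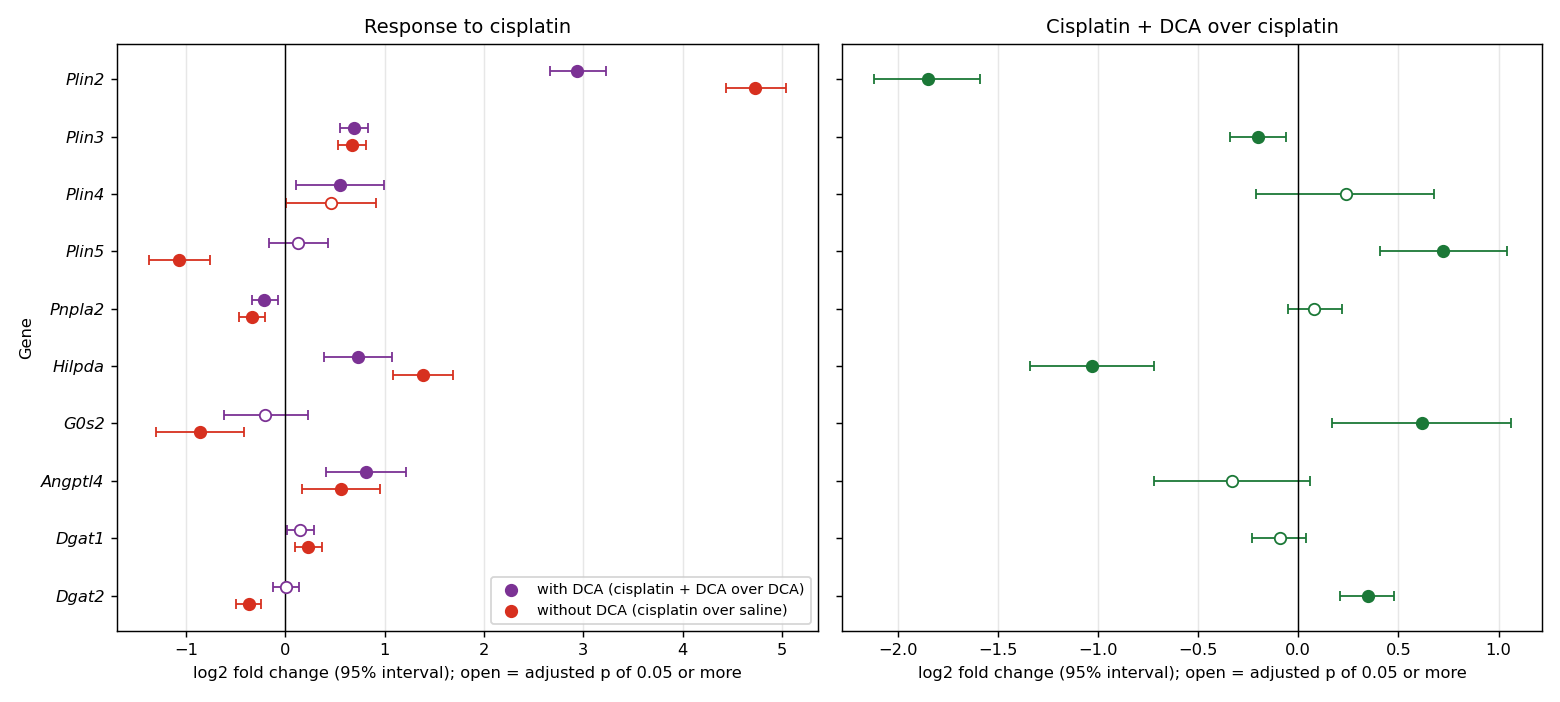
Log2 fold changes (horizontal axes) with 95% intervals for the 10 genes: left, the response to cisplatin with and without dichloroacetate (DCA); right, combination over cisplatin. Filled points are called; the intervals of the 2 responses stand apart for Plin2, Plin5, Hilpda and Dgat2, whose interactions are -1.79, 1.20, -0.65 and 0.38, and only narrowly for Hilpda.

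Dichloroacetate without cisplatin changed no member by the edgeR test (0 of 10, where 0.309% of all genes were called), and DESeq2 also called 0. At an unadjusted p below 0.05 there were 4 of 10, where 11.9% of all genes were, and all 4 were lower. Plin5 averaged 4.49 ± 0.869 CPM in dichloroacetate mice and 6.30 ± 0.476 CPM in saline mice, a log2 fold change of -0.48 (95% interval -0.77 to -0.19, adjusted p = 0.17). Plin3 gave -0.22 (95% interval -0.36 to -0.08), Hilpda -0.38 (95% interval -0.72 to -0.04) and Angptl4 -0.58 (95% interval -0.97 to -0.18). For Angptl4 the mice of the 2 groups overlapped, and the value ran from -0.76 to -0.28 under the alternatives. Plin2 lay at 11.1 to 14.8 CPM in dichloroacetate mice and 13.2 to 14.4 CPM in saline mice, and its log2 fold change had a 95% interval of -0.34 to 0.22.

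A wider set of 59 other genes of droplet proteins, triglyceride synthesis, lipolysis and lipid uptake was examined, of which 57 were tested. With cisplatin 17 rose, 24 fell and 16 were not called, where 29.7% of all genes rose and 30.4% fell, and the median was -0.06. In the combination over cisplatin 19 were higher, 6 lower and 32 not called, where 18.1% of all genes were higher and 13.5% lower, and the median was 0.13. The interaction was called for 18, of which 14 were positive and 4 negative, where 11.4% of all genes were positive and 7.15% negative. The rises included Cidec, a droplet fusion protein, at 3.69 (SE 0.63), Angptl8, a secreted regulator of lipoprotein lipase, at 2.68 (SE 0.16), Acsl4, an acyl-CoA synthetase, at 0.96 (SE 0.10), the phosphatidate phosphatase Lpin3 at 0.94 (SE 0.08) and the seipin gene Bscl2 at 0.84 (SE 0.06). The falls were led by Apob, a lipoprotein backbone, at -2.32 (SE 0.20), Lmf1, a maturation factor for lipases, at -2.04 (SE 0.10), lipoprotein lipase itself, Lpl, at -1.97 (SE 0.11) and Fitm1, which promotes droplet formation, at -1.44 (SE 0.13). Pnpla7, a lysophospholipase, had -1.37 (SE 0.09) and the fatty acid translocase Cd36 had -1.27 (SE 0.16).

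Several of these stood nearer to saline in combination mice than in cisplatin mice. Angptl8 averaged 3.79 ± 0.336 CPM in combination mice, 7.21 ± 0.617 CPM in cisplatin mice, 1.14 ± 0.308 CPM in dichloroacetate mice and 1.11 ± 0.118 CPM in saline mice, and the combination over cisplatin gave -0.93 (SE 0.14, adjusted p = 0.00031). Cd36 averaged 316 ± 27.4 CPM in combination mice, 188 ± 56.8 CPM in cisplatin mice, 619 ± 44.3 CPM in dichloroacetate mice and 452 ± 33.3 CPM in saline mice. Acsl4 went the other way, with 105 ± 6.76 CPM in combination mice, 82.8 ± 11.9 CPM in cisplatin mice, 50.3 ± 4.74 CPM in dichloroacetate mice and 42.5 ± 1.17 CPM in saline mice, and the combination over cisplatin gave 0.34 (SE 0.09, adjusted p = 0.015). Bscl2 was 79.0 ± 4.86 CPM in combination mice and 79.7 ± 3.08 CPM in cisplatin mice, a difference of -0.01 (SE 0.06).

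**Figure D4:**
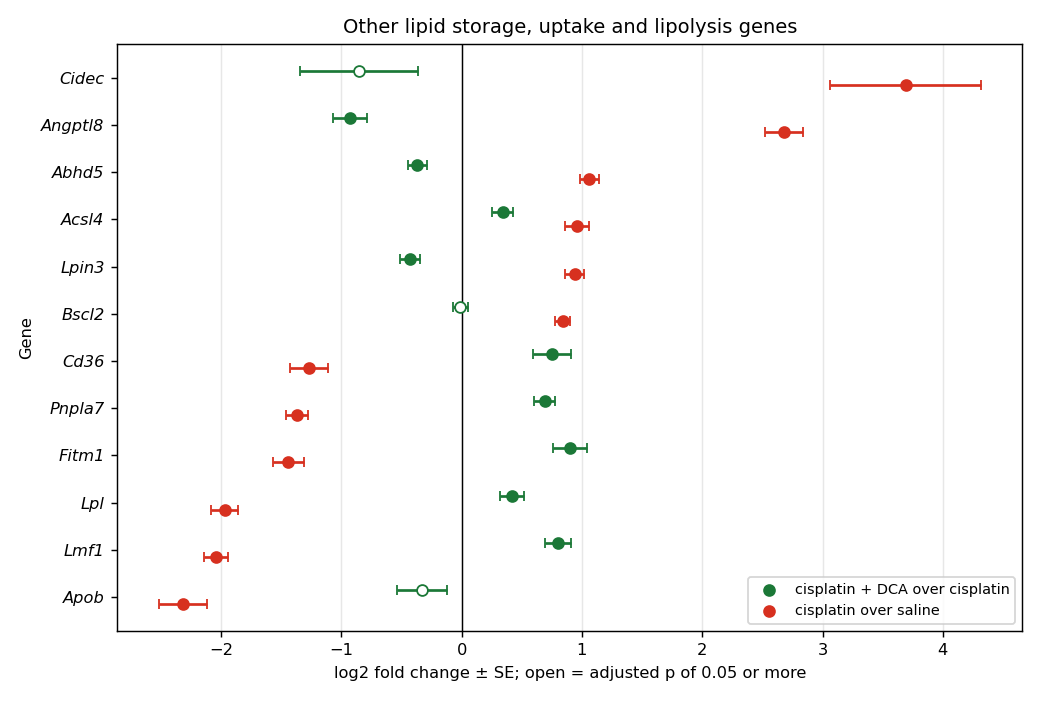
Log2 fold change ± SE (horizontal axis) of the 12 named genes of the wider set for the combination over cisplatin (DCA, dichloroacetate) and for cisplatin over saline; filled points are called. Acsl4 is higher in both comparisons (0.34 and 0.96), Bscl2 is at -0.01 for the combination over cisplatin, and Cidec and Apob are not called there.

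Known targets of PPAR and of hypoxia-inducible factors, and a list of transcriptional regulators, moved in both directions with cisplatin. Of all genes, 29.7% rose and 30.4% fell. Of 30 tested PPAR target genes, 12 rose and 8 fell, with Creb3l3, a liver-type transcription factor, at 3.40 (SE 0.32) and Pdk4 at 3.18 (SE 0.29), and with Cd36 and the dehydrogenase Acadm at -1.15 (SE 0.08) among the falls. In the combination over cisplatin, 13 of the 30 were higher and 4 lower, where 18.1% and 13.5% of all genes were, and the lower ones included Pdk4 at -1.94 (SE 0.27, adjusted p = 0.00014). Of 27 targets of hypoxia-inducible factors, 11 rose and 10 fell, with Ddit4 at 1.69 (SE 0.13) and adrenomedullin, Adm, at 1.59 (SE 0.18) against the carbonic anhydrases Car9 at -2.32 (SE 0.17) and Car12 at -1.71 (SE 0.08). Of 26 transcriptional regulators, 9 rose and 9 fell, led by Creb3l3 and Cebpb, at 2.22 (SE 0.18), and by Klf15, at -1.50 (SE 0.17), and Ppargc1b, at -1.02 (SE 0.14). The receptor genes were chosen for mention after their values were seen. Ppara fell with cisplatin by a log2 value of -0.87 (SE 0.14, adjusted p = 0.00013) and was higher in the combination than in cisplatin by 1.04 (SE 0.14, adjusted p = 0.00013), and Pparg had -0.85 (SE 0.17) with cisplatin and -0.21 (SE 0.19, adjusted p = 0.46) in the combination over cisplatin.

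Markers of other cells were read beside these results. Of all genes, 29.7% were called higher and 30.4% lower with cisplatin over saline. For the combination over cisplatin these shares were 18.1% and 13.5%. The 10 proximal tubule markers all fell with cisplatin and were all higher in the combination than in cisplatin, and they summed to 6706 to 7396 CPM in combination mice, 3502 to 4286 CPM in cisplatin mice, 12349 to 13764 CPM in dichloroacetate mice and 12905 to 14484 CPM in saline mice. Plin5, Pnpla2, G0s2 and Dgat2 followed the same order of cisplatin below combination below saline in their means, and the part of the tubule markers in this was not tested. Of 10 adipocyte markers 7 were tested, and Cidec and Retn were called higher with cisplatin. The defining fat markers Adipoq, Lep and Plin1 summed to 2.02, 0.0543 and 0.122 CPM in combination mice, 0.142, 0.713 and 1.15 CPM in cisplatin mice, 1.52, 0.0249 and 1.54 CPM in dichloroacetate mice, and 0.133, 0.134 and 0.201 CPM in saline mice. The sum varied widely between mice of the same group, except in saline mice, which were low throughout. Over saline, the 7 tested adipocyte markers had a median log2 fold change of 2.28 in cisplatin, 1.93 in combination and 1.81 in dichloroacetate mice. For all genes the medians were -0.01, 0.01 and -0.01. Adipoq and Plin1 were not called in any of these comparisons. All 10 together summed to 52.3 to 79.5 CPM in combination mice, 52.1 to 72.7 CPM in cisplatin mice, 63.5 to 68.5 CPM in dichloroacetate mice and 62.7 to 71.3 CPM in saline mice, most of it from Fabp4 and Lipe. Cisplatin replicate 3, which had the highest G0s2 and Plin4 of its group, also had the highest sum of the 3 defining markers in its group. Combination replicate 1, without which the Plin4 call against saline was lost, likewise had the highest Plin4, G0s2 and marker sum of its group. In dichloroacetate mice Plin4 was 3.42, 2.34 and 3.45 CPM, lowest in the mouse with the lowest marker sum, whereas in saline mice it was highest in replicate 2, whose sum was 0.134 CPM. The part of the fat markers in these values was not tested. Cidec was 2.27 CPM in cisplatin replicate 1, where the defining markers were near 0, against 2.65 and 2.52 CPM in the other cisplatin mice. In dichloroacetate mice Cidec was 0.909, 0.0746 and 0.997 CPM, and in combination mice 2.50, 0.951 and 0.731 CPM. Within each of these groups it was highest in the mouse with the highest marker sum. Saline mice had 0.144 to 0.244 CPM of Cidec, and the part of the fat markers in Cidec was not tested. Macrophage markers summed to 81.4 to 94.2 CPM in combination mice, 104 to 120 CPM in cisplatin mice, 92.9 to 159 CPM in dichloroacetate mice and 114 to 136 CPM in saline mice, with 2 of 10 higher (Cd68 and Itgam) and 3 lower (Csf1r, Mrc1 and Adgre1) with cisplatin. Cd68 had 4.10 to 6.30 CPM in combination mice, 25.0 to 41.6 CPM in cisplatin mice, 1.51 to 2.17 CPM in dichloroacetate mice and 1.52 to 2.66 CPM in saline mice, and Csf1r had -0.87 (SE 0.10) and Mrc1 -1.15 (SE 0.25) with cisplatin over saline. Thick ascending limb markers summed to 1531 to 2473 CPM in combination mice, 1701 to 2213 CPM in cisplatin mice, 3032 to 3669 CPM in dichloroacetate mice and 3414 to 3959 CPM in saline mice, with 1 of 5 higher and 3 lower with cisplatin.

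The members span 1057 to 29062 bases from start to end. The 13137 of 20370 tested genes up to that span had a median log2 fold change of 0.09 with cisplatin over saline and -0.03 for the combination over cisplatin.

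For the 9 members called with cisplatin over saline, the genes with the most similar pattern were sought among 16134 genes by the root mean square difference of centred log2 CPM over the 12 libraries, as a description. For Plin2 these were Smpdl3b at 0.30, Bbc3 at 0.35 and Gm12551 at 0.39 log2 units, where the median gene differed from Plin2 by 2.03. For Hilpda they were Pdgfb at 0.14, Tor3a at 0.15 and Efhd2 at 0.15, with a median of 0.68. Plin5 lay nearest to Gm12340 at 0.16, Slc29a3 at 0.17 and Cc2d2a at 0.17, with a median of 0.45, and G0s2 to Wdr70 at 0.16, Rab11fip4 at 0.18 and Gm12531 at 0.18, with a median of 0.47. Angptl4 lay nearest to Gm12397 at 0.19, 9430037G07Rik at 0.21 and Arrdc4 at 0.21, with a median of 0.51. The remaining members had closer neighbours, and the median gene was also closer to them. Plin3 had Dpp7 at 0.06 with Sirt6 and Mapkapk2 at 0.07 (median 0.40), and Pnpla2 had Lss and Hp1bp3 at 0.04 and Eif4a2 at 0.05 (median 0.26). Dgat1 had Dedd2 at 0.02 with Ncaph2 and Ccdc85b at 0.04 (median 0.23), and Dgat2 had Pgpep1, Klhdc9 and Fam149a at 0.05 (median 0.27). No member was among the 3 nearest genes of these 9.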

How the data were processed

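Kidney RNA of 12 mice was sequenced from TruSeq RNA libraries, per the labels' protocols. Values used here are the deposited raw counts, whole numbers for each Ensembl gene with 1 column per library. The submitters' processing notes name build mm10 and, in no stated order, HTSeq, TopHat, DESeq, Cufflinks, Trimmomatic and bedtools; versions, roles and counting settings are not given in the sources used here. A table of the same genes rescaled per library was not used. Symbols and positions came from GENCODE M21 (27955 of 28991 identifiers matched). Genes passing filterByExpr (20370) were fitted in R 4.3.3 with edgeR 4.0.16 (TMM scaling, 1 mean per group, all 12 libraries, 8 residual degrees of freedom, biological coefficient of variation 0.0917) and tested by the quasi-likelihood test with Benjamini-Hochberg adjustment over all genes, a procedure also tested on simulated data. Log2 CPM used a prior count of 2. RPKM is the scaled CPM divided by the kilobases of merged exons. Alternatives were scaling by DESeq2's median of ratios (RLE), no filter, DESeq2 1.42.0, the replicate number as a block, only the groups compared, and each library left out.

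The members, gene lists and tests were chosen with earlier results of these data known. Beside all 10 members, the text names the 6 largest called rises and falls of the wider list and the 2 largest of the other lists with cisplatin, at 1 CPM or more, and the 3 nearest genes of each member called with cisplatin over saline. The labels call the 3 mice per group biological replicates without naming litters or days. The p-values set a group difference against the spread between these mice, estimated over all groups and moderated across genes.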

Additional observations from a re-analysis of the deposited data

Results flagged for a closer look

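The response to cisplatin differed between mice with and without dichloroacetate, by the interaction term of the edgeR fit, for 4 of the 10 genes. Plin2 had an interaction of -1.79 log2 units and Hilpda of -0.65, so both rose less with dichloroacetate. Plin5 had 1.20 and Dgat2 0.38. Both genes fell with cisplatin over saline, and for neither was the combination over dichloroacetate called. The Plin5 value also holds a lower level in dichloroacetate mice than in saline mice, at -0.48 (adjusted p = 0.17 by the edgeR test, not called). Plin5 in the combination over cisplatin was 0.72. In 18.6% of all genes the interaction was called. The Hilpda value was lost in 11 of 16 alternatives, and the other 3 kept their calls in all 16.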

How the results depend on the processing

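Of 710 member values computed under the alternatives, 667 kept their side of the threshold, 35 lost a call, 8 gained a call and 0 changed sign where either value was called; 22 changed sign while uncalled in both. The count of members called stayed within 1.5 times under RLE scaling, no filter, DESeq2, the replicate block and fits of only the groups compared. With 1 library left out it ran from 8 to 10 for cisplatin over saline, 4 to 6 for the combination over cisplatin, 4 to 6 over dichloroacetate, 3 to 6 over saline and 3 to 5 for the interaction, and was 0 for dichloroacetate over saline. The replicate block gave 9 members called for cisplatin over saline and 5 for the combination over cisplatin. The labels do not say that the numbers pair the mice, so the main fit had no block. Same-numbered libraries had deviations correlated at -0.10 to 0.15 (18 pairs, mean 0.03). The other 36 pairs between groups had a mean of -0.01. With 3 mice a group, these correlations cannot exclude a shared day or batch. For dichloroacetate over saline, 63 genes were called in all, against 336 with DESeq2, 119 without the filter, 117 with the replicate block, 15 with only those groups fitted and 16 to 126 with 1 library left out. The wider list had 1 call there, against 4 with DESeq2, 2 without the filter, 0 with only those groups fitted and 0 to 1 with 1 library left out, and its interaction calls ran from 11 to 22 with 1 library left out. The cause of these differences was not tested. Each such fit assumes that the 2 mice left in a group vary like the others. The limit that depth sets on the low members differed by gene and group. The counting error of a library was about 12.4% for Hilpda in combination mice and 9.56% for Plin5 in cisplatin mice. The spread between mice there was 6.39% and 8.46% of the mean, below the counting error. For Plin4 the spread was the larger in all 4 groups, with 25.9% against 8.43% in cisplatin mice. For Plin5 in dichloroacetate mice it was 19.4% against 6.94%, and for Hilpda in saline mice 15.5% against 12.2%. For Hilpda the spread was 8.74% against 8.35% in cisplatin mice and 12.7% against 13.8% in dichloroacetate mice.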
